A study of Rattus norvegicus with 30 samples.

Results

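The endothelin system was followed across all libraries through 6 genes, chosen by name: the ligand genes Edn1 (ENSRNOG00000014361) and Edn3 (ENSRNOG00000007477), the receptor genes Ednra (ENSRNOG00000012721) and Ednrb (ENSRNOG00000010997), and the converting enzyme genes Ece1 (ENSRNOG00000014241) and Ece2 (ENSRNOG00000001715). Each of the 6 names matched 1 of the 30562 rows of the deposited table. Endothelins are short peptides that are cut from longer precursors, the last cut being made by endothelin-converting enzymes. Endothelin-1, the product of Edn1, is made mainly by endothelium and is among the strongest known constrictors of vessels. The type A receptor, encoded by Ednra, sits on smooth muscle and pericytes and drives contraction, whereas the type B receptor, encoded by Ednrb, sits on endothelium, where it triggers release of nitric oxide and prostacyclin and removes endothelin-1 from the blood, for which the lung is a main site. In the alveolar wall Ednrb also marks aerocytes, the broad, thin capillary cells across which gas is exchanged.

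RNA was sequenced from CD31-positive cells of wild-type rat lungs, captured with magnetic beads against an endothelial surface protein. The rats had undergone a sham operation or a Glenn operation, which connects a caval vein directly with the pulmonary artery, and were sampled after 3 weeks. In each surgery arm the animals ate a diet with control, deficient or excess vitamin A, which gave 6 groups of 5 libraries (sham control, sham deficient, sham excess, Glenn control, Glenn deficient and Glenn excess). Strain, sex and age are not given in the sources used here. The labels do not say that the 5 libraries of a group came from separate animals. The p-values thus weigh differences against the spread between these libraries, which may in part be technical.

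Libraries held 22.03 to 77.6 M estimated counts (median 40.0 M). Levels are given as CPM, counts per 1 M counts of a library after TMM scaling, and are not per transcript length, so the level of one gene says nothing about its abundance relative to another. Endothelial markers were high in every library (Pecam1, which encodes CD31, at 863 to 1731 CPM and Cdh5 at 1557 to 2926 CPM). RNA of other cells was present as well: Sftpc, a gene of type 2 alveolar cells, stood at 15062 to 36185 CPM, and the leukocyte gene Ptprc at 0.569 to 18.9 CPM. The libraries fell into classes that cut across the groups. RT1-CE16, a class I histocompatibility gene, was at 407 to 949 CPM in 13 libraries and at 21.9 to 44.4 CPM in the other 17, with no high library among the 5 of the sham excess group. The library names form series A (22 libraries) and series B (8 libraries), and the series was a term of the fit behind each value that names no other setting. In the deficient and excess groups series and RT1-CE16 level coincide, series A holding the low and series B the high libraries, so they cannot be told apart there. By the level of Ddx3y, a Y-linked gene, 13 libraries were male and 17 female, with both in every group.

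The sequence upstream of Edn1 is shown because it carries, within a short stretch, letters for several regulators known to act on this gene, and that upstream of Ednrb because this gene fell alongside Edn1 after surgery and holds none of those letters. Promoters of 5 of the 6 genes were matched in the RefSeq table (assembly GRCr8), and both printed stretches run 5′ to 3′ on the minus strand from 250 to 101 bases before the RefSeq start of the gene, at chr17:22666788-22666937 for Edn1 and chr15:87086866-87087015 for Ednrb. Capitals mark matches of the searched motifs.
Edn1: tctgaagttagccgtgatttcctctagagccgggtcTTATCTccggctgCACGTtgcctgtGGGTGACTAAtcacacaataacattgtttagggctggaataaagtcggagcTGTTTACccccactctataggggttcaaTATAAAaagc
Ednrb: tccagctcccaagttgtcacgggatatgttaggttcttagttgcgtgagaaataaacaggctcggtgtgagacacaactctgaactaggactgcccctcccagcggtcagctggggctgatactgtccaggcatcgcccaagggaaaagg

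The search covered 6 motifs on both strands of the 250 bases before the start. Several of the motifs belong to regulators known to act on Edn1, so finding them there is a description and not a test. Each of the 6 motifs matched once in Edn1. In the order of the printed letters these were the GATA factor motif AGATAA, on the opposite strand at -214 to -209, the hypoxia response element ACGTG, on the opposite strand at -201 to -197, the KLF motif CACCC, on the opposite strand at -189 to -185, the AP-1 motif TGACTNA at -186 to -180, which overlaps the KLF match, the forkhead motif TGTTTAC at -138 to -132 and the TATA box TATAAA at -110 to -105. Among 33469 rat windows of the same length, 10.3% held AGATAA, 16.6% ACGTG, 49.2% CACCC, 11.5% TGACTNA, 3.21% TGTTTAC and 12.9% TATAAA. None of the 6 motifs matched in the 250 bases of Ednrb, and CACCC alone matched in Ednra, Ece1 and Ece2. These are matches of letters, not sites shown to be bound.

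All 6 genes passed the filter on low counts and were tested by edgeR's quasi-likelihood test, with Benjamini-Hochberg adjustment over the 16171 genes that passed it. An adjusted p under 0.05 is called a change. With the Glenn effect averaged over the 3 diets, 5 of the 6 genes changed: Edn1, Ednrb and Ece1 fell, and Ednra and Ece2 rose. This count stands against 48.2% of all genes tested, of which 23.4% rose and 24.7% fell. On single diets, 3 of 6 changed on the control diet (24.9% of all genes), 5 of 6 on the deficient diet (27.4%) and 3 of 6 on the excess diet (21.9%). Libraries of the 2 arms did not overlap for 3 genes on the control diet (Edn1, Ednrb and Ece1, against 17.2% of all genes), 3 on the deficient diet (Edn1, Ednrb and Ednra, 19.6%) and 2 on the excess diet (Edn1 and Ednrb, 16.3%). Edn1 and Ednrb were lower on each of the 3 diets, as were 6.46% of all genes. In a bulk sample, fewer cells of a type and less RNA per cell cannot be told apart. Type 2 alveolar markers fell in 7 of 7, with a median averaged change of -0.43. Arterial markers rose in 6 of 8 and fell in 2 (median 0.39). The part of either in the changes of these genes was not tested.

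**Figure D1:**
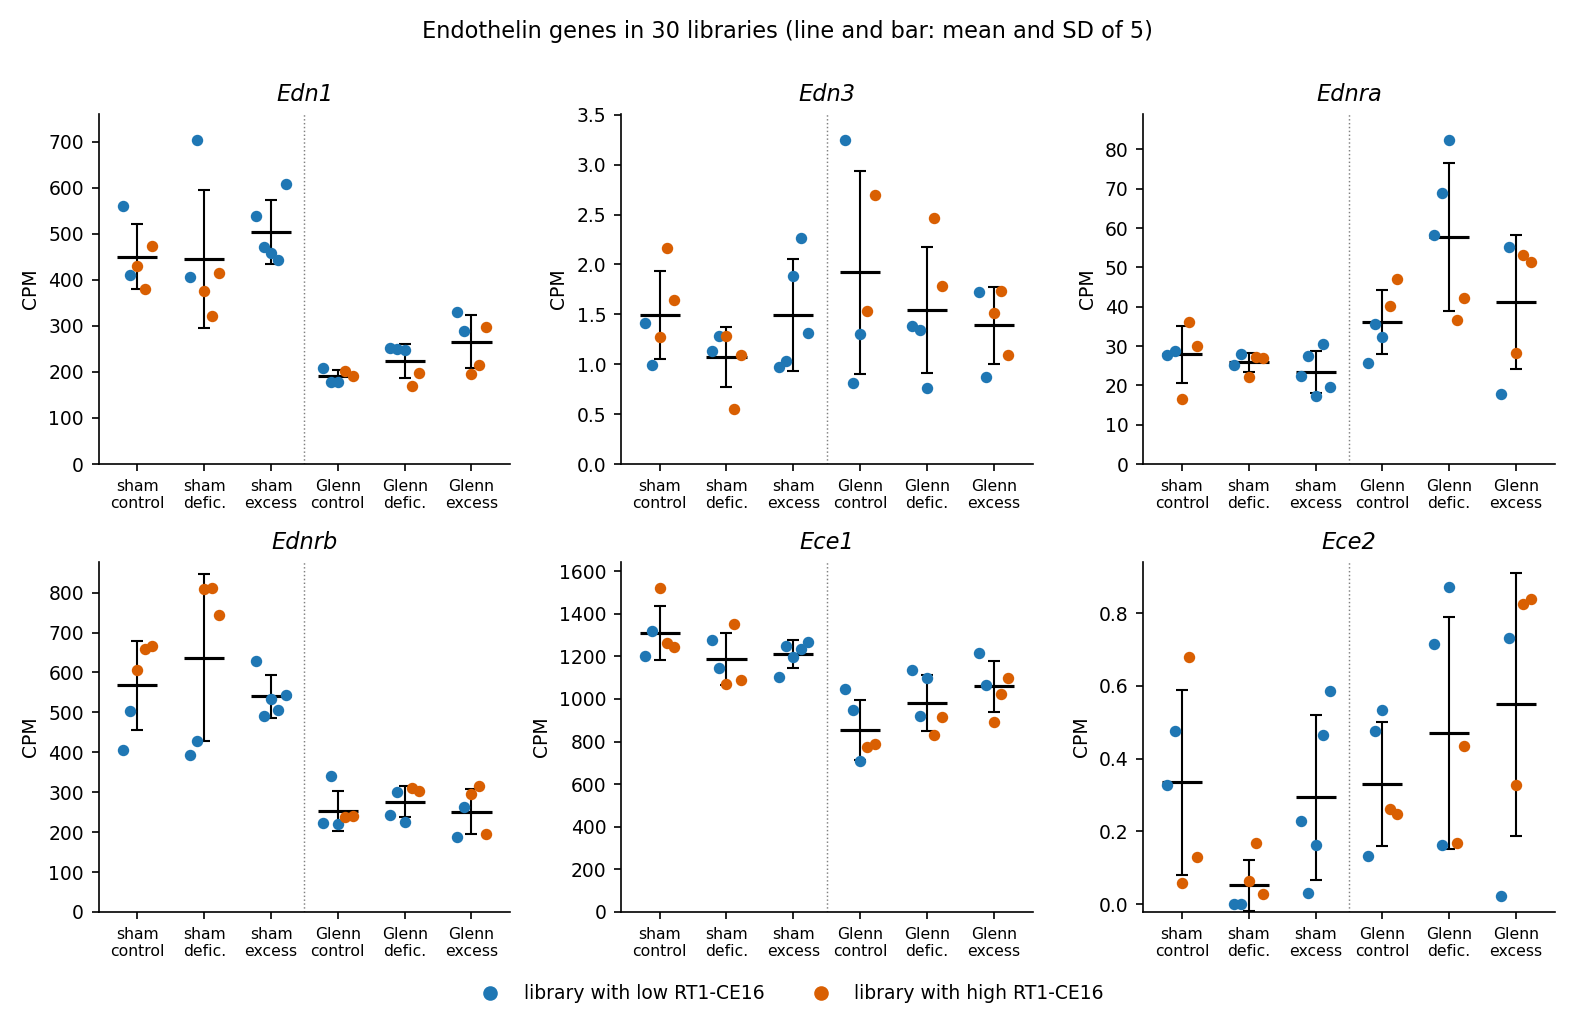
Level of each endothelin gene (CPM, linear axis) in the 30 libraries by group, with the mean (line) and SD (bar) of 5 libraries and colour for the RT1-CE16 level. The axis starts at 0, except for Ece2, where it starts just below 0 to hold an SD bar. Every Glenn library lies below every sham library for Ednrb, with Glenn libraries at 188 to 340.0 CPM and sham libraries at 393 to 812 CPM.

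Edn1, which encodes the precursor of endothelin-1, fell 1.98-fold after the Glenn operation. On the control diet its level was 559.9, 410.3, 429.6, 379 and 472 CPM in sham libraries 1 to 5, and 207, 178, 178, 201 and 192 CPM in Glenn libraries 1 to 5. The 5 Glenn libraries of this diet lay within a narrow span far below the lowest sham library. On the deficient diet the sham libraries were at 406, 704, 375, 322 and 415 CPM and the Glenn libraries at 253, 249, 248, 170.2 and 197 CPM. Sham library 2 stood above the rest here, and the groups again did not overlap. On the excess diet sham libraries were at 538, 470.2, 459, 442 and 608 CPM and Glenn libraries at 330.4, 289, 196, 216 and 297 CPM. These groups did not overlap either, although Glenn libraries 1, 2 and 5 were higher than any Glenn library of the other diets.

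Averaged over the diets, Edn1 fell by 0.99 on the log2 scale (SE 0.08, edgeR adjusted p = 5.1e-12), from 466 ± 99.4 CPM (SD, n = 15) to 227 ± 48.9 CPM (SD, n = 15). By diet, Edn1 changed by -1.24 on the control diet (SE 0.13, edgeR adjusted p = 1.41e-08), -1.08 on the deficient diet (SE 0.13, adjusted p = 1.83e-07) and -0.65 on the excess diet (SE 0.14, adjusted p = 0.00112). Without the series term the Edn1 values were -0.99 on the deficient diet and -0.92 on the excess diet. The sham excess group holds no series B library, so the smaller excess-diet value leans on the series term. Of the 15 Glenn libraries, 14 were below every sham library, the exception being Glenn excess library 1. In the RT1-CE16-low libraries alone the averaged Edn1 change was -1.06 (adjusted p = 9.85e-07), and in series A alone -1.02 (adjusted p = 9.39e-09).

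Edn3 encodes endothelin-3, a ligand that prefers the type B receptor and is best known from neural crest development. Its level was low, with 23 to 124 counts per library. Sham libraries ranged from 0.553 to 2.27 CPM (median 1.28) and Glenn libraries from 0.759 to 3.25 CPM (median 1.52), so the arms overlapped over most of their range. The averaged Edn3 difference was 0.21 (SE 0.21, edgeR adjusted p = 0.427). No diet gave an Edn3 change past the threshold: the values were 0.35 on the control diet (adjusted p = 0.514), 0.54 on the deficient diet (adjusted p = 0.287) and -0.25 on the excess diet (adjusted p = 0.709). No Edn3 difference was detected.

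Ednrb, the type B receptor gene and aerocyte marker, was the only one of the 6 genes whose 15 Glenn libraries all lay below all 15 sham libraries, a separation shown downward by 2.73% of all genes and in either direction by 5.83%. On the control diet it stood at 406, 503, 606, 658 and 666 CPM in sham libraries 1 to 5 and at 222, 340.0, 222, 238 and 241 CPM in Glenn libraries 1 to 5. Glenn library 2 was apart from the other 4, yet still below the lowest sham library. On the deficient diet sham libraries stood at 393, 427, 808, 812 and 744 CPM and Glenn libraries at 244, 300.1, 225, 309 and 304 CPM. The sham libraries of this diet split into a pair at 393 and 427 CPM and 3 libraries at 744 CPM or more, and the pair were RT1-CE16-low libraries of series A while the 3 were RT1-CE16-high libraries of series B. On the excess diet sham libraries stood at 629, 491, 532, 505 and 544 CPM and Glenn libraries at 188, 262, 295, 314 and 197 CPM, again without overlap.

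Ednrb fell by 1.21 on the log2 scale averaged over the diets (SE 0.09, edgeR adjusted p = 7.7e-12), a 2.31-fold decrease from 582 ± 137 CPM (SD, n = 15) to 260.2 ± 47.1 CPM (SD, n = 15). The Ednrb change was -1.17 on the control diet (SE 0.16, edgeR adjusted p = 1.53e-06), -1.06 on the deficient diet (SE 0.16, adjusted p = 1.11e-05) and -1.39 on the excess diet (SE 0.18, adjusted p = 7.52e-07). Group means for sham and Glenn were 568 and 253 CPM on the control diet, 637 and 277 CPM on the deficient diet and 540.4 and 251 CPM on the excess diet. The sham excess group holds no series B library, so the larger excess-diet value leans on the series term. Within sham libraries Ednrb was at 606 to 812 CPM where RT1-CE16 was high (n = 6) and at 393 to 629 CPM where it was low (n = 9). With the RT1-CE16 level as the added term instead of the series, that term was 0.36 for Ednrb, high minus low (SE 0.10, edgeR adjusted p = 0.0319), and -0.31 for Edn1 (SE 0.09, adjusted p = 0.036), a call made for 6.53% of all genes. Among RT1-CE16-low libraries alone the Ednrb change was smaller, at -0.90 averaged (adjusted p = 5.98e-06), -0.79 on the control diet (adjusted p = 0.0118) and -0.68 on the deficient diet (adjusted p = 0.0226). In the RT1-CE16-high libraries alone it was -1.41 on the control diet and -1.36 on the deficient diet.

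Other aerocyte markers moved in both directions. Of 10 listed besides Ednrb, 5 fell, among them Car4, a membrane carbonic anhydrase (-1.92), Prx, a scaffold protein gene (-1.79), and Tbx2, a transcription factor gene (-1.65). The vascular endothelial growth factor receptor gene Kdr (-0.85) and the membrane protein gene Emp2 (-0.30) made up the 5. Apln, which encodes the peptide apelin, rose by 1.36 and the sulfotransferase gene Chst1 by 1.07, and 3 of the 10 did not pass. Beside this and the 2 lists below, 23.4% of all genes tested rose and 24.7% fell. The aerocyte list's median change was -0.19, against -0.01 over all genes tested, and its summed level was 2574 to 4396 CPM in sham and 1907 to 2806 CPM in Glenn libraries. With the mean log2(CPM + 1) of these 10 markers as a covariate, the Ednrb change was -0.54 averaged (adjusted p = 0.00145), against -1.21 without it. This score was 6.73 to 7.23 in sham and 6.32 to 6.77 in Glenn libraries, so score and surgery can hardly be told apart in that fit. Markers of the other capillary cell, the general capillary cell, fell in 5 of 6 tested with none rising (median -0.28, summed level 6644 to 9893 CPM in sham and 3061 to 6869 CPM in Glenn libraries). Lymphatic markers rose in 6 of 6 (median 1.02), from a summed 1010.1 to 1942 CPM in sham to 2286 to 4957 CPM in Glenn libraries. The part of either in the Ednrb change was not tested.

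Ednra, the type A receptor gene, moved the opposite way. Its level on the control diet was 27.8, 28.8, 16.5, 36.1 and 30.01 CPM in sham libraries 1 to 5 and 25.6, 35.5, 32.2, 40.1 and 47.0 CPM in Glenn libraries 1 to 5. These groups overlapped. On the deficient diet sham libraries were at 25.1, 28.0, 22.1, 27.2 and 27.0 CPM and Glenn libraries at 58.1, 69.0, 82.4, 36.7 and 42.1 CPM, with every Glenn library above every sham library. On the excess diet sham libraries were at 22.3, 27.5, 17.4, 30.4 and 19.5 CPM and Glenn libraries at 17.8, 55.2, 28.2, 53.1 and 51.3 CPM. Glenn libraries 2, 4 and 5 of this diet stood above all sham libraries, and 1 and 3 stood among them.

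Averaged over the diets Ednra rose by 0.80 on the log2 scale (SE 0.15, edgeR adjusted p = 8.17e-05), or 1.74-fold, from 25.7 ± 5.29 CPM (SD, n = 15) to 45.0 ± 17.1 CPM (SD, n = 15), and 10 of 15 Glenn libraries were above every sham library. The Ednra rise passed the threshold on the deficient diet (1.09, SE 0.27, edgeR adjusted p = 0.00308) and the excess diet (0.94, SE 0.30, adjusted p = 0.022). With the control diet the Ednra difference was 0.37 (SE 0.26, adjusted p = 0.322). The excess-diet call was lost without Glenn excess library 2 (0.76, adjusted p = 0.145) or sham excess library 3 (0.85, adjusted p = 0.055), in a fit of the 2 groups compared (0.65, adjusted p = 0.339) and in the RT1-CE16-low libraries, which on this diet are those of series A (0.65, adjusted p = 0.211). Every sham excess library is of series A, so with the series term the 2-group fit also rests on Glenn excess libraries 1 and 2. The deficient-diet call was lost in the RT1-CE16-high libraries alone, which on this diet are those of series B (0.63, adjusted p = 0.213). The RefSeq annotation places LOC134483343 over Ednra, and the strand setting of the counting is not given in the sources used here, so their reads may not be separable.

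Mural markers, genes of pericytes and smooth muscle, rose together with Ednra. All 10 of the 11 listed that were tested rose, by 0.56 to 2.21 with a median of 1.68, where 23.4% of all genes rose. The summed level of these mural markers was 131 to 329 CPM in sham libraries and 399 to 1788 CPM in Glenn libraries, without overlap. With the mural marker score, the mean log2(CPM + 1) of the 10, as a covariate the averaged Ednra difference was -0.20 (adjusted p = 0.729). The score was 3.36 to 4.50 in sham and 4.67 to 6.66 in Glenn libraries, so score and surgery cannot be told apart in this fit. Fibroblast markers overlapped between the arms (summed level 1394 to 3432 CPM in sham and 1962 to 4980 CPM in Glenn libraries), and 7 of 8 rose (median 0.69). Correlations with marker scores pooled the diets of an arm and permuted its 15 libraries freely. Group means were not removed, so differences between diet groups enter r, rho and their p-values. Across the 15 Glenn libraries the Ednra level correlated with the mural score with Pearson's r = 0.78 (permutation p = 0.00077, 0.00154 after adjustment over 4 relations) and Spearman's rho = 0.67 (permutation p = 0.00786, adjusted 0.0105). Without the 2 libraries farthest from the median score the Glenn r was 0.57, and it was 0.79 in the 8 RT1-CE16-low and 0.82 in the 7 RT1-CE16-high Glenn libraries. Across the 15 sham libraries Ednra gave r = 0.30 (permutation p = 0.274, adjusted 0.274) and rho = 0.22 (permutation p = 0.429), with r = 0.25 without the 2 farthest, 0.29 within the 9 RT1-CE16-low and 0.55 within the 6 RT1-CE16-high libraries.

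Ednrb and the aerocyte score were related in both arms. Across the 15 sham libraries r was 0.94 and rho 0.94, each with a permutation p of 1e-05, the smallest that 100000 permutations can give (4e-05 after adjustment over the 4 relations). Without the 2 farthest libraries the sham r for Ednrb was 0.92, and it was 0.85 within the RT1-CE16-low and 0.86 within the RT1-CE16-high libraries. Across the 15 Glenn libraries Ednrb gave r = 0.68 (permutation p = 0.0042, adjusted 0.0056) and rho = 0.71 (permutation p = 0.00353, adjusted 0.00706). The Glenn value was 0.51 without the 2 farthest libraries, 0.73 in the RT1-CE16-low and 0.63 in the RT1-CE16-high libraries. All these values share the library's scaling, and the diets of an arm were again pooled.

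**Figure D2:**
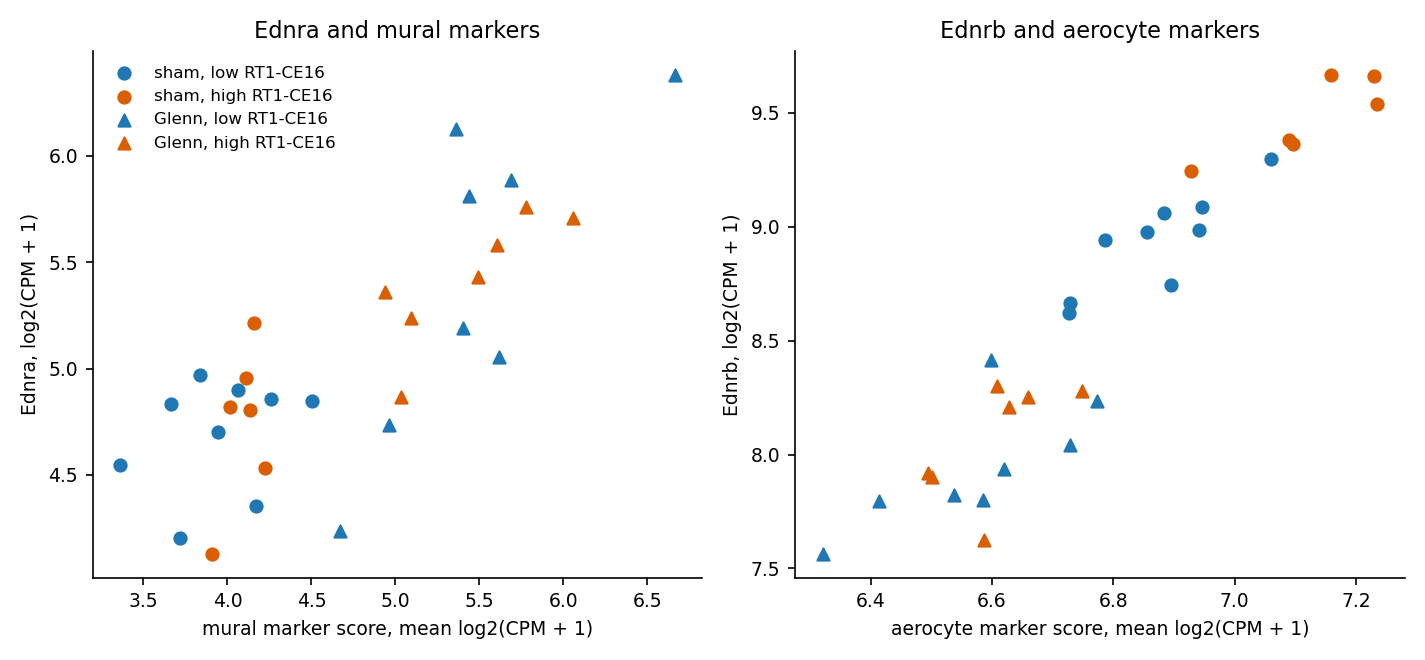
Left, Ednra against the mural marker score, and right, Ednrb against the aerocyte marker score, each as log2(CPM + 1) with 1 point per library, circles for sham, triangles for Glenn and colour for the RT1-CE16 level. Ednra follows its score in the Glenn libraries (r = 0.78) and less in the sham libraries (r = 0.30), and Ednrb follows its score in sham libraries (r = 0.94) and Glenn libraries (r = 0.68).

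The balance of the receptor transcripts differed between the arms. Ednra stood at 2.72 to 6.86 CPM per 100 CPM of Ednrb in the 15 sham libraries (median 4.51) and at 9.47 to 36.6 in the 15 Glenn libraries (median 16.8). No Glenn library reached down to the sham range. The medians of sham control, deficient and excess libraries were 5.49, 3.63 and 3.58, and those of the matching Glenn groups 14.6, 23.0 and 16.9. The ratio is not per length, so it compares libraries and not the abundance of the receptors, and it combines genes already described and was given no test of its own.

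Ece1 encodes the enzyme that makes the final cut of big endothelin-1. On the control diet it stood at 1201, 1319.8, 1522, 1262 and 1243 CPM in sham libraries 1 to 5 and at 1047, 949, 707, 773 and 788 CPM in Glenn libraries 1 to 5. The groups did not overlap on this diet. On the deficient diet sham libraries stood at 1278, 1144, 1069.6, 1351 and 1091 CPM and Glenn libraries at 1137, 922, 1097, 832 and 916 CPM, and here Glenn libraries 1 and 3 fell within the sham range. On the excess diet sham libraries stood at 1101, 1248, 1198, 1233 and 1267 CPM and Glenn libraries at 1215, 1066, 890.1, 1024 and 1099.6 CPM. Only Glenn library 1 of that diet reached into the sham range, and Glenn library 5 was just under it.

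Averaged over the diets Ece1 fell by 0.34 on the log2 scale (SE 0.06, edgeR adjusted p = 1.4e-05), from 1235 ± 115 CPM (SD, n = 15) to 964 ± 149 CPM (SD, n = 15), and 11 of 15 Glenn libraries were below every sham library. The Ece1 decrease was 1.54-fold on the control diet (-0.62, SE 0.10, edgeR adjusted p = 1.9e-05) and 1.24-fold on the deficient diet (-0.31, SE 0.10, adjusted p = 0.0194). With the excess diet the Ece1 difference was -0.09 (SE 0.11, adjusted p = 0.603), and -0.19 without the series term (adjusted p = 0.179). The deficient-diet call was lost in the RT1-CE16-low libraries, here those of series A (-0.20, adjusted p = 0.394), in the RT1-CE16-high libraries, here those of series B (-0.42, adjusted p = 0.0509), with the mural score (-0.34, adjusted p = 0.212) or the aerocyte score (-0.33, adjusted p = 0.0949) as a covariate and, at -0.28 to -0.25, without any one of sham deficient library 4 (adjusted p = 0.0679), Glenn deficient library 2 (adjusted p = 0.0527) and Glenn deficient library 4 (adjusted p = 0.0739). The averaged change was -0.37 with the mural score as a covariate (adjusted p = 0.062).

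Ece2, a related enzyme known mainly from nervous tissue, was close to the limit of detection, with 0 to 38 counts per library. On the deficient diet the sham libraries held 0, 0, 2, 7 and 1 counts and the Glenn libraries 30, 7, 31, 7 and 10 counts. A count of 0 allows up to 3 counts, which is 0.0775 CPM in sham deficient library 1 and 0.0874 CPM in library 2. The Glenn libraries of this diet ranged from 0.163 to 0.871 CPM and the sham libraries reached 0.168 CPM, so the groups met at their edges. For the control diet Ece2 was at 0.0581 to 0.680 CPM in sham and 0.131 to 0.535 CPM in Glenn libraries, and on the excess diet at 0.0294 to 0.585 CPM and 0.0208 to 0.840 CPM, with wide overlap.

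Ece2 rose by 1.29 on the log2 scale averaged over the diets (SE 0.47, edgeR adjusted p = 0.0257), from 0.227 ± 0.226 CPM (SD, n = 15) to 0.450 ± 0.289 CPM (SD, n = 15), with 5 of 15 Glenn libraries above every sham library. The deficient diet alone gave an Ece2 change past the threshold (3.35, SE 0.99, edgeR adjusted p = 0.0116), and the other values were -0.02 on the control diet (SE 0.77, adjusted p = 0.99) and 0.53 on the excess diet (SE 0.94, adjusted p = 0.743). The averaged call was lost without Glenn excess library 2 (1.11, adjusted p = 0.0659) and without Glenn deficient library 3 (1.14, adjusted p = 0.0542). The averaged value was -1.69 with the mural score as a covariate (adjusted p = 0.311). The deficient-diet call was lost in the RT1-CE16-high libraries, here those of series B (1.68, adjusted p = 0.342), and with the mural score (0.13, adjusted p = 0.957). In the RT1-CE16-low libraries both sham deficient libraries held 0 counts, so fitted changes there rest on a group at 0 and are not given. LOC102551589 overlaps Ece2 in the RefSeq annotation, and reads of the 2 may not be separable.

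**Figure D3:**
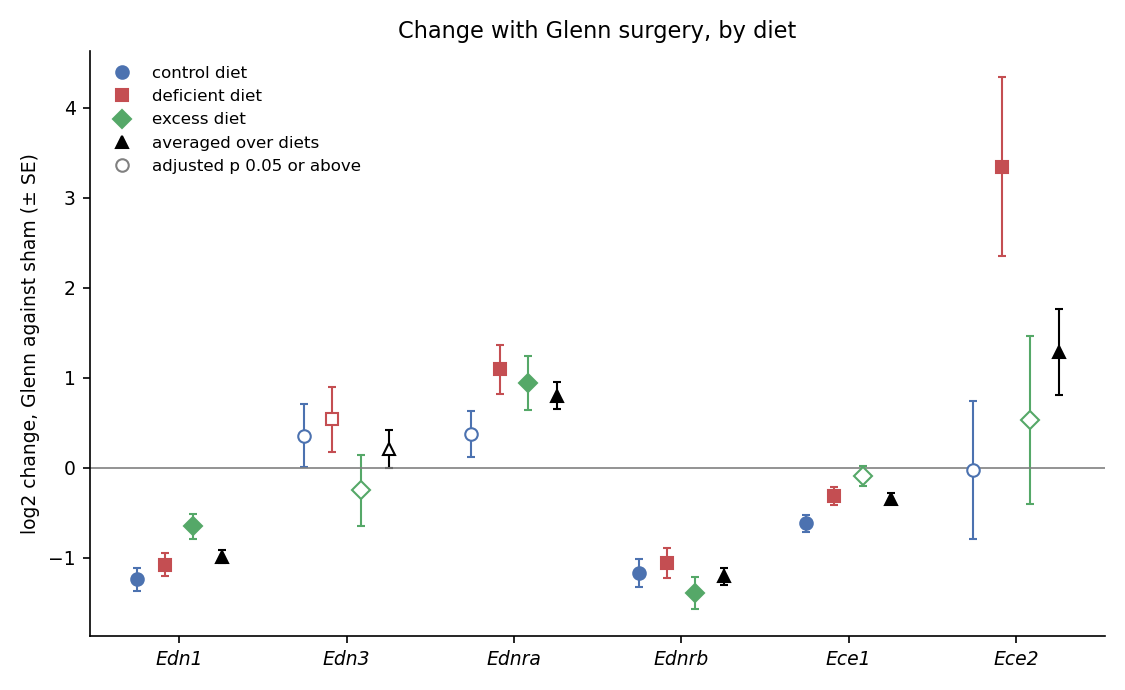
Log2 change of each endothelin gene, Glenn against sham, on each diet and averaged over the diets, from edgeR, with bars of 1 SE and open symbols where the adjusted p was 0.05 or above. Edn1 and Ednrb lie below 0 on all 3 diets (averaged changes of -0.99 and -1.21), and the bars of Ece2 are the widest.

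Few differences between the diets passed the threshold in these genes, with n = 5 libraries per group. After sham surgery no endothelin gene differed among the 3 diets by the F test of edgeR (0 of 6 adjusted, 1 of 6, Ece2, at an unadjusted p under 0.05). Over all genes the share called by edgeR was 0% adjusted and 8.76% unadjusted. DESeq2 and limma voom also called 0 of 6 each, and over all genes they called 202 and 52. After Glenn surgery 1 of 6 passed by edgeR, Edn1 (adjusted p = 0.03), against 0.538% of all genes. At an unadjusted p under 0.05 the count was 3 of 6, against 11.4% of all genes. Ranked by mean, the sham groups headed the order of Edn1 levels with sham excess at 503 ± 68.8 CPM, sham control at 450.3 ± 69.9 CPM and sham deficient at 445 ± 149 CPM (SD, n = 5), and these neighbours did not differ beyond their spread. The Glenn groups followed, with Glenn excess at 266 ± 57.3 CPM, Glenn deficient at 223 ± 37.6 CPM and Glenn control at 191 ± 13.4 CPM (SD, n = 5).

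Between Glenn groups, Edn1 was 1.68-fold higher with excess than with control diet (0.75 on the log2 scale, SE 0.14, edgeR adjusted p = 0.008), a call made for 1.47% of all genes. Glenn excess libraries 3 and 4, at 196 and 216 CPM, lay near or within the Glenn control range of 178 to 207 CPM. The other pairs, which share libraries with this one, did not pass: Edn1 on the deficient diet differed from the control diet by 0.40 (SE 0.13, adjusted p = 0.305), and the excess diet from the deficient diet by 0.35 (SE 0.13, adjusted p = 0.881). The F test for Edn1 lost its call without the series term (adjusted p = 0.513), in series A alone (adjusted p = 0.0618), with the RT1-CE16 level as the added term instead (adjusted p = 0.197), and without any one of Glenn excess library 1 (adjusted p = 0.216), Glenn excess library 2 (adjusted p = 0.0711) and Glenn control libraries 3, 4 and 5 (adjusted p of 0.0652, 0.0735 and 0.0902). The excess-to-control difference was 0.73 without Glenn excess library 1 (adjusted p = 0.0917), 0.47 without the series term (adjusted p = 0.264), 0.51 with the RT1-CE16 level as the added term instead (adjusted p = 0.0876), 0.72 in the RT1-CE16-low libraries (adjusted p = 0.15) and 0.27 in the RT1-CE16-high libraries (adjusted p = 0.715). All 5 Glenn control libraries are of series A.

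Whether the Glenn effect itself differed by diet was tested by the interaction of surgery and diet, and 0 of 6 endothelin genes passed by edgeR, DESeq2 or limma voom, against 0.00618% of all genes by edgeR. At an unadjusted p under 0.05 the edgeR count was 3 of 6, against 5.72% of all genes. These were Ece1 (adjusted p = 0.632 by edgeR), Edn1 (adjusted p = 0.758) and Ece2 (adjusted p = 0.864). The smaller Edn1 and Ece1 changes on the excess diet, as fitted with the series term, were therefore not shown to differ from those on the other diets.

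Other genes of the pathway were read from 3 lists of 41 genes, of which 39 were tested. Averaged over the diets, 11 rose, 17 fell and 11 did not pass, where 23.4% of all genes rose and 24.7% fell. The median change of the 39 was -0.11 against -0.01 over all genes. The first list held ligands and peptidases. Ecel1, which encodes a peptidase of the same family as Ece1 that is induced in injured neurons, rose by 4.78 (SE 0.38, edgeR adjusted p = 2.13e-11), from 0.1704 ± 0.202 to 4.39 ± 1.77 CPM (SD, n = 15 each). No sham library was above 0.813 CPM for Ecel1 and no Glenn library below 1.57 CPM. Mme, which encodes neprilysin, a peptidase that degrades endothelins, fell by 0.76 (SE 0.13, adjusted p = 1.46e-05), from 109 ± 23.7 to 62.8 ± 15.7 CPM (SD, n = 15 each). Edn2, the third ligand gene (-0.40, adjusted p = 0.402), and Cma1, a mast cell chymase gene (0.13, adjusted p = 0.868), did not pass, and Kel and Mmel1 did not pass the filter on low counts.

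Of 22 genes that couple the receptors to the cell, 6 rose, 10 fell and 6 did not pass (median -0.13). The shares over all genes were 23.4% rising and 24.7% falling. Rgs4, a brake on G protein signalling that is common in pericytes, rose by 2.23 (adjusted p = 1.67e-11), from 7.57 ± 1.05 to 35.2 ± 16.9 CPM (SD, n = 15 each). The endothelial nitric oxide synthase gene Nos3 rose by 0.91 (adjusted p = 1.07e-09) and the calcium channel gene Itpr1 by 0.74 (adjusted p = 3.01e-06). Plcb1, a phospholipase gene downstream of Gq proteins, fell by 1.27 (adjusted p = 3.26e-09), from 64.9 ± 20.9 to 25.7 ± 4.93 CPM (SD, n = 15 each). The Gq family gene Gna11 fell by 0.46 (adjusted p = 7.57e-10) and the receptor kinase gene Grk5 by 0.44 (adjusted p = 1.35e-08), all by edgeR.

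The third list held 13 regulators known to act at the Edn1 promoter, several of them through the motifs printed above. Of these, 4 rose, 6 fell and 3 did not pass (median -0.05, with 23.4% of all genes rising and 24.7% falling). Among those that fell were Epas1, which encodes a hypoxia-inducible factor, by 0.95 (from 5411 ± 506 to 2765 ± 442 CPM, adjusted p = 6.06e-14), the shear-induced factor Klf2 by 1.16 (from 1474 ± 283 to 656 ± 103 CPM, adjusted p = 3.88e-13) and Gata2, a GATA factor gene of endothelium, by 0.98 (from 526 ± 48.9 to 263 ± 56.2 CPM, adjusted p = 1.5e-12; SD, n = 15 each, edgeR). Hif1a, a relative of Epas1, rose by 0.58 (adjusted p = 1.76e-11), the AP-1 gene Fos by 0.50 (adjusted p = 9.52e-09) and Smad3, a mediator of TGF-beta signals, by 0.77 (adjusted p = 1.09e-07). Jun, the other AP-1 gene of the list, went the opposite way from Fos and fell by 0.27 (edgeR adjusted p = 0.00104). A part of these factors in the Edn1 level was not tested.

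**Figure D4:**
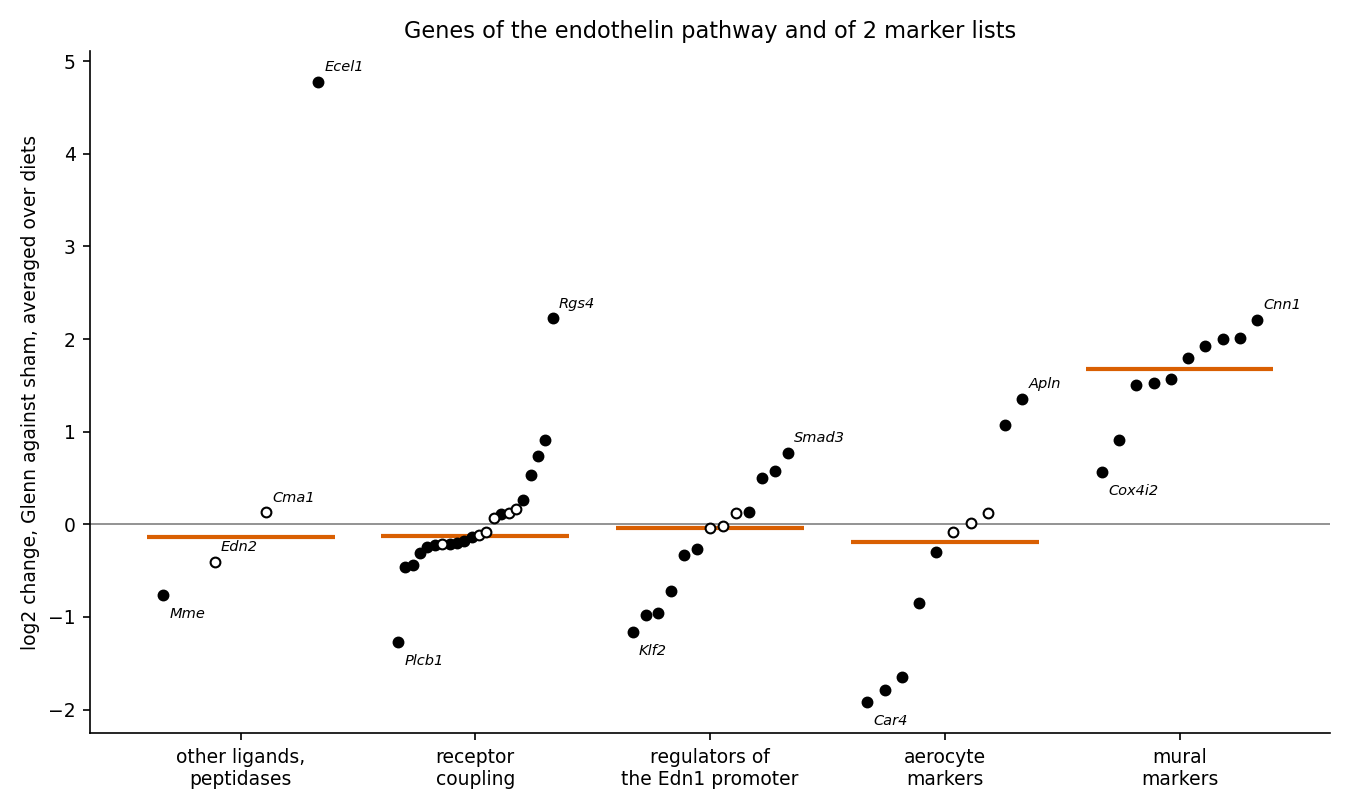
Log2 change with Glenn surgery, averaged over the diets, of the tested genes of the 3 pathway lists and of the aerocyte and mural marker lists, 1 point per gene, filled where the adjusted p was under 0.05, with a bar at each list's median. The pathway medians are -0.14, -0.13 and -0.05, the mural median is 1.68, and Ecel1 at 4.78 is the highest point.

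The genes whose levels varied most like those of each endothelin gene were found by the smaller of 2 Pearson correlations, over the 15 sham and over the 15 Glenn libraries, after removal of each group's mean. For Edn1 these were Eftud2 (0.78), St3gal4 (0.78) and Fbxw17 (0.75). Edn3 was closest to Wnt3a (0.74), Rtkn2 (0.72, ENSRNOG00000067849) and Tp53bp2 (0.72). For Ednra the likeness was highest with Sod3 (0.89), Adarb1 (0.85) and Gsn (0.84), and for Ednrb with Pcdha2 (0.87), Tmem47 (0.79) and Il1a (0.78). Pcdha2 shares exons with its neighbours in the protocadherin cluster, so its own counts are uncertain. Ece1 was closest to Ehd1 (0.77), Pear1 (0.76) and Ace (0.76), and Ece2 to Fxyd1 (0.78), Rasl12 (0.69) and Il34 (0.67). The genes nearest to Ednrb also fell on average, Pcdha2 by 1.70, Tmem47 by 1.12 and Il1a by 2.97 (adjusted p of 2.8e-12, 2.76e-11 and 3.97e-13 by edgeR). The genes nearest to Edn1 did not all share its direction: Fbxw17 fell by 0.21 (adjusted p = 0.0111), while Eftud2 rose by 0.12 (adjusted p = 0.00258) and St3gal4 by 0.23 (adjusted p = 6.36e-05). Of those nearest to Ece1, Ehd1 fell by 0.75 and Ace by 0.98, and Pear1 rose by 0.41 (adjusted p of 1.36e-11, 2.05e-13 and 4.32e-07 by edgeR). Those nearest to Ednra rose, Sod3 by 0.49, Adarb1 by 1.14 and Gsn by 0.70 (adjusted p of 0.00869, 2.97e-08 and 0.000129 by edgeR).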

How the data were processed

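The authors deposited a table of estimated counts by gene, made with Salmon per the submitters' processing notes, which also name FastQC, Trim Galore, Picard, STAR and the builds mRatBN7.2 and rn7. Versions, annotation release and strand setting are not given in the sources used here. Libraries were made with a low-input SMART-Seq kit, per the labels' protocols. All 30 sample columns were used. Of the values, 13.6% were not whole, and counts were rounded. Library pairs within groups differed by more than sampling noise (chi-square per degree of freedom 20.2 to 119.9).

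The low-count filter was filterByExpr (edgeR 4.0.16, R 4.3.3, minimum count 10, total 15). Counts were scaled by TMM (factors 0.938 to 1.06) and fitted by quasi-likelihood with the 6 groups and the library series as terms. The 15 libraries of each surgery thus enter through their groups. P-values were adjusted by Benjamini-Hochberg over all 16171 genes tested. The alternatives were DESeq2 1.42.0, limma 3.58.1 voom, other scalings, filters, covariates and subsets of libraries, of which the RT1-CE16-low, RT1-CE16-high and series B subsets were chosen after seeing the data. The edgeR code was tested on simulated data. Marker scores are mean log2(CPM + 1). The 6 genes and all lists were chosen with earlier results of these data known. Pathway genes named are every ligand and peptidase and, of the other 2 lists, the 3 raised and 3 lowered with the smallest adjusted p. Jun was added beside Fos. The likeness rule took the top 3 genes averaging 1 CPM or more and having no placeholder symbol. Pairwise diet contrasts are given only where the F test passed. Promoters come from RefSeq (GRCr8), and motif searches are descriptions only.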

Additional observations from a re-analysis of the deposited data

Results flagged for a closer look

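In 3 of the 36 sets of 5 libraries (6 genes in 6 groups), 1 library stood far from the other 4, its gap to the nearest being above 0.71 of the whole range. Chance alone gives about 1.8 such sets. Edn1 in sham deficient library 2 was at 704 CPM, with the other 4 at 322 to 415 CPM (gap 0.756 of the range). Without it the deficient-diet change of Edn1 was -0.91, its smallest size among the fits that left out 1 library. Ednrb in Glenn control library 2 was at 340.0 CPM, with the others at 222 to 241 CPM (gap 0.833 of the range), and without it the control-diet change of Ednrb was -1.30. Edn3 in sham deficient library 4 was at 0.553 CPM, with the others at 1.09 to 1.29 CPM (gap 0.736 of the range). None of these 3 libraries changed a call of its gene when left out.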

How the results depend on the processing

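The averaged decreases of Edn1 (-1.20 to -0.98) and Ednrb (-1.21 to -0.54) passed the threshold under all 12 alternatives and in all 30 fits that left out 1 library. With the mural score as a covariate 2 of 6 genes passed, averaged and on the deficient diet alike. The averaged values were then -0.37 for Ece1, -1.69 for Ece2 and -0.20 for Ednra, with Ednra at -0.39 on the control diet, and Ednra at -0.26, Ece2 at -2.90 and Edn3 at 0.42 on the excess diet. With the aerocyte score, Ece2 was 2.24 averaged, not passing, and 0.95 on the control diet. The deficient-diet count was 2 in the RT1-CE16-high libraries alone and 2 in series B alone, which are the same libraries on this diet. The count for diet after Glenn was 0 without the series term, in series A, with the RT1-CE16 level, within the groups compared, and in either RT1-CE16 level alone, 2 with limma voom (Edn1 and Ece1), and 0 to 2 with 1 library left out. Leaving out 1 library moved Ece2 to 1.11 to 1.68 averaged, -0.26 to 0.39 on the control diet and -0.44 to 1.12 on the excess diet. On the control diet Ece2 was 0.39 with limma voom, and on the deficient diet Edn3 was -0.0502 in series A and -0.0530 in the RT1-CE16-low libraries. Edn1 on the deficient minus the control diet after Glenn was -0.10 in the RT1-CE16-high libraries. The cause of these shifts was not tested.

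A replicate block took the count for diet after Glenn to 0 (Edn1, adjusted p = 0.0762) and Ece2 on the control diet to 0.0238, and changed no other call of these genes. The labels do not say that a number pairs libraries. Deviations of same-numbered libraries correlated at -0.25 to 0.29 (median 0.10, 75 pairs) and of other libraries at -0.42 to 0.41 (median -0.02, 300 pairs). Of the 30 libraries, 15 correlated best with a library of their own number. Only group means were removed for these deviations, so RT1-CE16 level, sex and series remain in them. Why same-numbered libraries were alike was not tested. Libraries numbered 1 were RT1-CE16-low and male in all 6 groups, and those numbered 2 RT1-CE16-low and female. The sham excess group has no RT1-CE16-high library, so averaged and excess-diet values could not be had there. Depth limits Ece2 and Edn3, at 0 to 38 and 23 to 124 counts per library.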
